A study of Mus musculus with 6 samples.

Results

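The NK cell lectin receptors on CD4+ T cells were followed here as 9 named genes: Klrb1b, Klrb1c, Klrb1f, Klrd1, Klrc1, Klrk1, Klrg1, Klre1 and Crtam. Every probe set whose platform annotation named exactly 1 gene, and that gene 1 of the 9, was taken, which gave 14 probe sets of 8 genes among the 18193 genes measured. Klrb1c had no probe set of its own. Crtam encodes a receptor of the immunoglobulin superfamily and is the 1 gene of the 9 that is not lectin-like. CD4+ T cells of memory phenotype were taken from spinal cord (3 arrays) and, for comparison, out of inguinal draining lymph nodes (3 arrays). All came from female C57BL/6 mice aged 8 to 10 weeks with acute clinical experimental autoimmune encephalomyelitis (EAE), an inflammatory disease of the central nervous system induced in both groups with the myelin oligodendrocyte glycoprotein peptide MOG35-55. The labels do not say how many mice stand behind an array or how the memory phenotype was gated, and no unimmunised mice were analysed here.

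Lectin-like receptors of this family sit on natural killer (NK) cells and on some activated or memory T cells, where they read ligands on neighbouring cells and either restrain or enhance killing and cytokine release. Inhibitory members carry tyrosine motifs that recruit phosphatases, while activating members signal through small adaptor proteins. Most of the genes lie in the NK gene complex. In the RefSeq gene table (assembly GRCm38.p6, used for order only) 8 of the 9 lie on chromosome 6 and Crtam on chromosome 9. Klrb1c and Klrb1b are direct neighbours, as are Klre1, Klrd1 and Klrk1, and Klrc3 and Klrc2 lie between Klrk1 and Klrc1. Other members lie further apart, with 112 protein-coding genes between Klrg1 and Klrb1c, 4 between Klrb1b and Klrb1f, and 13 between Klrb1f and Klre1.

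The 6 arrays had median intensities between 68 and 71. Intensities are the authors' normalized values on a linear scale, changes are log2 values of spinal cord minus lymph node with their standard error (SE), and a gene was called when limma's Benjamini-Hochberg adjusted p over all genes was below 0.05. The labels number the arrays 1 to 3 in each tissue, and arrays of the same number deviated together. Values with the number as a block are therefore given where they change the call of a member, and for some other genes. To judge low signals, a background limit of 92.45 was set at the 95th percentile of 93 probe sets of olfactory, vomeronasal and Y-linked genes, which these cells of female mice are not known to use. With 3 arrays against 3, the exact two-sided permutation test cannot give a p below 0.1.

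Klrb1b, Klrc1, Klrd1 and Klrk1 rose in the spinal cord samples, and the other 4 measured genes were not called. Thus 4 of 8 genes were called higher and 0 lower, where 1.13% of all genes were called higher and 1.41% lower. The median log2 change was 1.11 over the 8 genes and 0.00 over all genes. The members were chosen with earlier results of these data known, so their counts and median describe them and test nothing. By probe set, 8 of 14 were called higher in the fit over all probe sets, where 0.701% of probe sets were, and 11 of 14 had groups that do not overlap, higher in spinal cord, against 8.39% of probe sets. With single arrays left out, 1 to 4 genes were called (1 without spinal cord array 2 and 2 without array 3), and 3 to 6 probe sets. No share over all genes was computed for those fits, so these counts cannot be told apart from a general loss of calls. In bulk samples such as these, more cells that carry a receptor and more RNA per cell cannot be told apart.

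**Figure D1:**
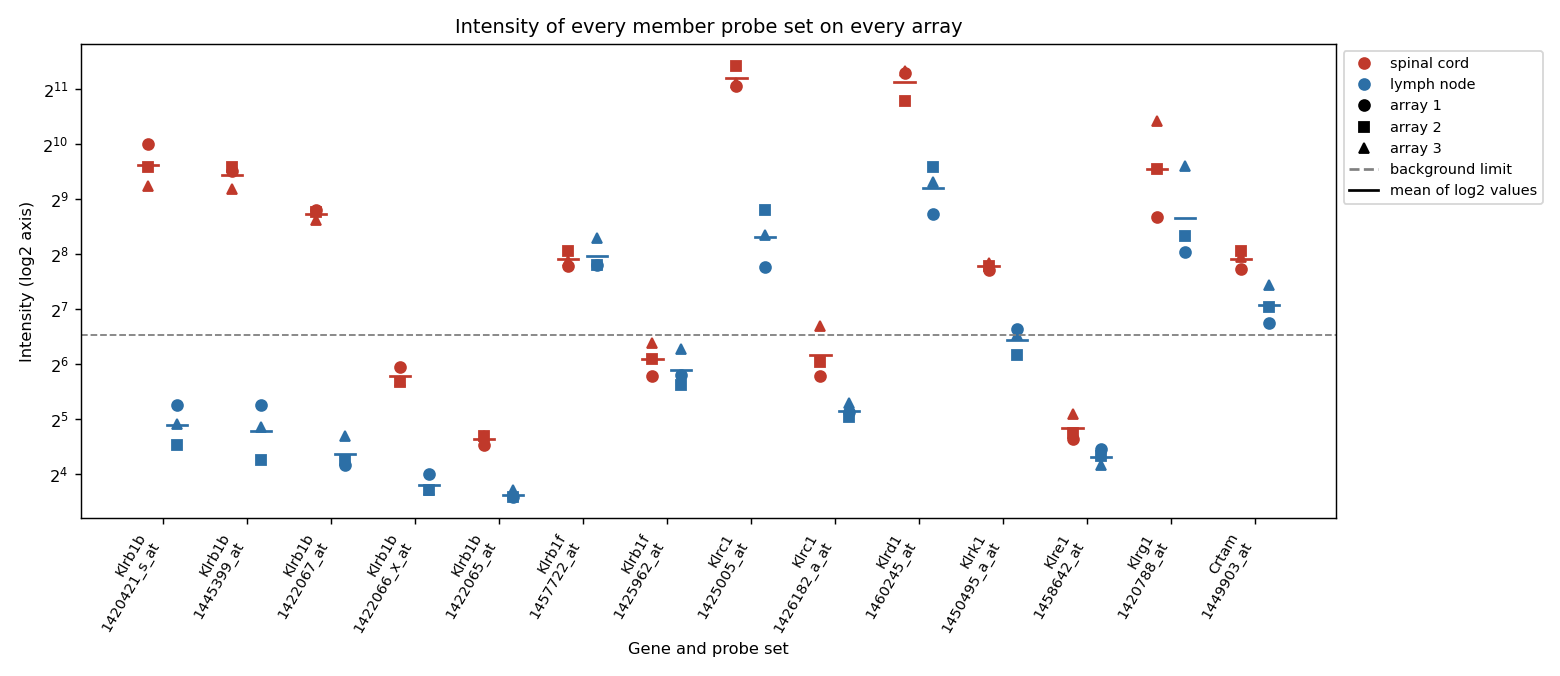
Intensity (log2 axis) of each of the 14 probe sets, with spinal cord arrays left of lymph node arrays, symbols for the array number, bars for the mean of log2 values (n = 3) and a dashed line at the background limit of 92.45. Klrb1b lies above the line in spinal cord and below it in lymph node in 3 of its 5 probe sets, Klrc1 and Klrd1 are bright in both tissues by their brightest probe sets, and Klrb1f does not separate.

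Klrb1b, which encodes the inhibitory receptor NKR-P1B for the ligand Clec2d, had the largest change of the 8 genes. Its brightest probe set, 1420421_s_at, read 1024, 773 and 607 in spinal cord, against 38, 23 and 30 in lymph node, with arrays in number order here and throughout. The groups do not overlap, and all 3 lymph node values lie under the background limit. The log2 change was 4.72 ± 0.26 SE, from 9.61 ± 0.38 in spinal cord against 4.89 ± 0.36 in lymph node (log2 mean ± SD, n = 3 each). The limma adjusted p was 0.00217. With the mean of its 5 probe sets in place of the brightest, the log2 change was 3.35 ± 0.14, also called. Taken against the background limit rather than the dim lymph node signal, Klrb1b was at least 8.47-fold higher. The call held in each of the 6 fits that left out 1 array, with log2 changes from 4.53 to 4.90.

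The other Klrb1b probe sets gave other levels but the same direction. Probe set 1445399_at read 735, 773 and 585 in spinal cord, against 38, 19 and 29 in lymph node (at least 7.49-fold higher). Probe set 1422067_at read 444, 438 and 396 in spinal cord, against 18, 19 and 26 in lymph node (at least 4.60-fold higher). In both, every spinal cord value lies above the limit and every lymph node value under it. Probe set 1422066_x_at read 62, 51 and 52 in spinal cord, against 16, 13 and 13 in lymph node, and 1422065_at read 23, 26 and 26 in spinal cord, against 12, 12 and 13 in lymph node. These last pairs of groups also do not overlap, but all their values lie under the background limit, so no fold is given. All 5 were called by limma over probe sets (adjusted p from 0.00276 to 0.0163). The 3 above the limit in spinal cord stayed called in all 6 fits that left out an array, and the dim 1422066_x_at and 1422065_at in 4 and 1 of them. A suffix of _s_at or _x_at on this platform marks a probe set whose probes can match related transcripts, while 1445399_at and 1422067_at carry no such mark.

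Of the related Klrb1 genes only Klrb1f could be read on its own, by its brighter probe set, and it did not show this difference. Klrb1f encodes the related receptor NKR-P1F, which binds Clr-g, the product of Clec2i. Its brighter probe set, 1457722_at, read 221, 266 and 235 in spinal cord, against 223, 223 and 314 in lymph node, so the groups overlap. The log2 change was -0.06 ± 0.18 SE (adjusted p = 0.932 by limma), and its sign turned under quantile normalization and with the mean of both probe sets (0.04 and 0.07). The second, 1425962_at, read 55, 68 and 84 in spinal cord, against 56, 49 and 77 in lymph node, under the limit throughout. Klrb1a, an activating relative, read 21, 27 and 26 in spinal cord, against 19, 18 and 26 in lymph node, also under it. A probe set annotated to both Klrb1b and Klrb1c (Klrb1c encodes the NK1.1 antigen that marks NK cells in this strain) falls outside the rule. It read 293, 223 and 218 in spinal cord, against 336, 231 and 346 in lymph node, above the background limit on every array. These values overlap between tissues and cannot be assigned to either gene.

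The start regions of Klrb1b and Klrb1f are shown because these related genes share sequence, while Klrb1b rose and Klrb1f was not called. Both come from RefSeq (GRCm38.p6) and span 250 bases before to 50 after the gene's start, 5′ to 3′ on the gene's strand, with stretches of 12 or more bases found in both windows in capitals. Klrb1b lies on the minus strand at chr6:128826266-128826565 and Klrb1f on the plus strand at chr6:129045651-129045950.
Klrb1b: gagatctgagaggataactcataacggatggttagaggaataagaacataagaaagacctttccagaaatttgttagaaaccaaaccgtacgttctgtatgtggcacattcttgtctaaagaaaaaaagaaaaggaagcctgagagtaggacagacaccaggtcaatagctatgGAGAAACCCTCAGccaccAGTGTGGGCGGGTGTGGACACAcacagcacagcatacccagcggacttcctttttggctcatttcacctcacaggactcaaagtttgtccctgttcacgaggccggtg
Klrb1f: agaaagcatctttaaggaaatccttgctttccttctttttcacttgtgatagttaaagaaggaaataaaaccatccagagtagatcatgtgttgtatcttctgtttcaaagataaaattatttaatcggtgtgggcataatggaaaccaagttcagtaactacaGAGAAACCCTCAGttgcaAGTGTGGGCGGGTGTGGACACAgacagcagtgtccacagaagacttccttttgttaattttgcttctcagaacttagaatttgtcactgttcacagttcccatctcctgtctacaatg
The capitals cover 35 bases of each window of 300, and the longest run, of 22 bases, occurs in the windows of 2 genes among 32851 start windows of the table on either strand. Klrb1c shares a run of 16 bases with Klrb1b, and the Klrk1 and Klrc1 windows share no run of 12 or more with it.

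Klrc1 and Klrd1, which encode the chains NKG2A and CD94 of an inhibitory heterodimer that binds the non-classical class I molecule Qa-1, both rose. Klrc1, by probe set 1425005_at, read 2136, 2761 and 2206 in spinal cord, against 217, 448 and 325 in lymph node. Klrd1 read 2498, 1776 and 2572 in spinal cord, against 423, 770 and 637 in lymph node. Neither gene overlaps between tissues, and every value lies above the background limit, so the lymph node cells also gave signal. In lymph node both genes were lowest on array 1 and highest on array 2.

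The log2 change of Klrc1 was 2.90 ± 0.28 SE, or 7.44-fold (11.20 ± 0.20 in spinal cord against 8.30 ± 0.52 in lymph node, log2 mean ± SD, n = 3 each). Its adjusted p by limma was 0.00824. With the mean of both Klrc1 probe sets, the second of them dim, the log2 change was 1.96 ± 0.18, also called. That of Klrd1 was 1.93 ± 0.27 SE, or 3.80-fold (11.14 ± 0.30 in spinal cord against 9.21 ± 0.44 in lymph node, n = 3 each). The limma adjusted p was 0.0243. For Klrc1, 1 of the 6 fits that left out an array was not called, that lacking spinal cord array 2 (0.0543). Klrd1 was called in the fit lacking lymph node array 1 (0.0446). It was not called without spinal cord arrays 1, 2 or 3 (limma adjusted p = 0.0839, 0.0728 and 0.0964) and without lymph node arrays 2 or 3 (0.0625 and 0.0774), with log2 changes from 1.68 to 2.12 over the 6 fits. Within pairs of arrays numbered 1, 2 and 3, the spinal cord to lymph node ratio was 9.84, 6.16 and 6.79 for Klrc1 and 5.91, 2.31 and 4.04 for Klrd1. For both genes the ratio was largest in pair 1 and smallest in pair 2.

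A second Klrc1 probe set, 1426182_a_at, was dim, at 55, 66 and 103 in spinal cord, against 35, 33 and 39 in lymph node. The groups do not overlap, but 2 of 3 spinal cord and all 3 lymph node values lie under the limit, and the probe set was not called (adjusted p = 0.142 by limma; 0.0323 with the replicate block). The genes next to Klrc1 gave no signal above the limit. Klrc2, the activating relative NKG2C, read 20, 25 and 21 in spinal cord, against 20, 21 and 23 in lymph node, and Klrc3 read 13, 13 and 13 in spinal cord, against 13, 12 and 13 in lymph node. A probe set annotated to both read 48 to 53 in spinal cord, against 39 to 47 in lymph node. None of these probe sets separates the tissues above background.

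**Figure D2:**
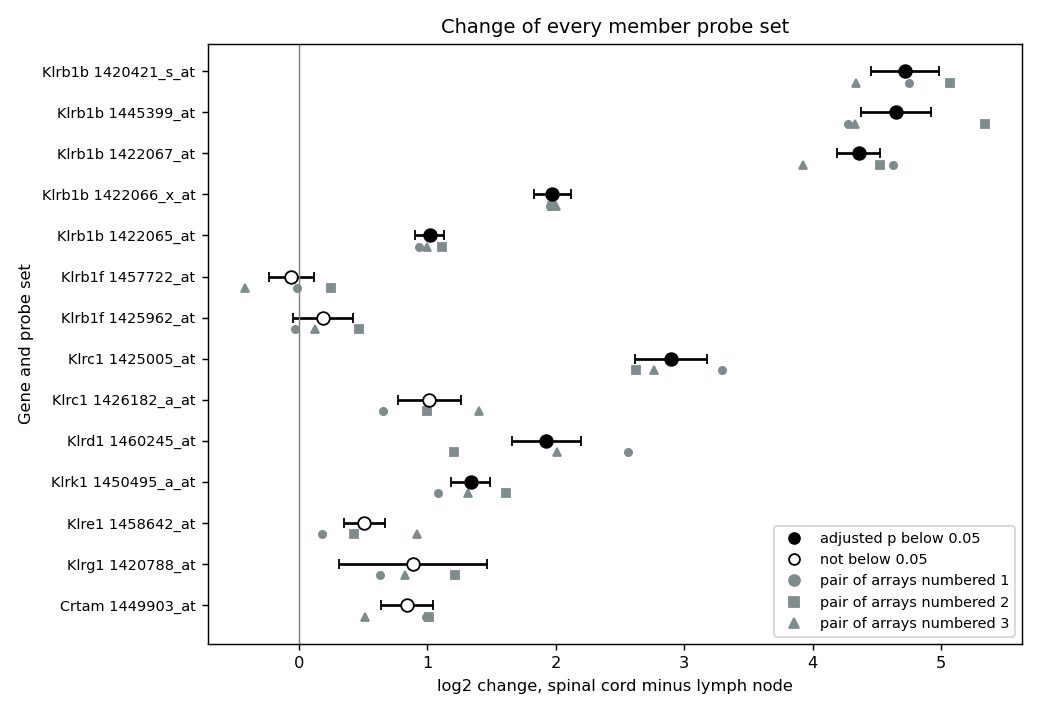
Log2 change, spinal cord minus lymph node, of each probe set with its SE by limma over probe sets (black, filled where the adjusted p was below 0.05), and below it in grey the log2 ratio within each pair of arrays of the same number. The 5 Klrb1b probe sets, Klrc1 1425005_at, Klrd1 and Klrk1 are filled, and the grey points of Klrg1 and Crtam lie to the right of 0 in every pair.

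Klrk1, which encodes NKG2D, an activating receptor for stress-induced ligands that signals through the adaptor DAP10, also rose. It read 210, 220 and 229 in spinal cord, against 99, 72 and 92 in lymph node. The groups do not overlap, and the lymph node arrays lie at or near the background limit, 2 of 3 under it. The log2 change was 1.34 ± 0.15 SE (7.78 ± 0.06 in spinal cord against 6.44 ± 0.24 in lymph node, log2 mean ± SD, n = 3 each). The limma adjusted p was 0.0136. No fold is given, since the lymph node mean is not above background. Leaving out spinal cord array 2 ended the Klrk1 call (adjusted p = 0.0757 by limma), as did leaving out array 3 (0.0568). Hcst, the gene of DAP10, was bright in both tissues, at 1526, 930 and 2091 in spinal cord, against 1127, 1037 and 1530 in lymph node, and the groups overlap (log2 change 0.24 ± 0.32, adjusted p = 0.82 by limma).

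The start regions of Klrk1 and Klrc1 are printed because both genes rose, with matches to 4 motifs in capitals. The motifs, searched on both strands, were GGTGTGA for T-box factors, TGTGGT for Runx factors, TGANTCA for AP-1 and TTANGTAA for Nfil3, and no matches in these windows overlap. The windows come from RefSeq (GRCm38.p6), on the minus strand at chr6:129623815-129624114 for Klrk1 and chr6:129678924-129679223 for Klrc1.
Klrk1: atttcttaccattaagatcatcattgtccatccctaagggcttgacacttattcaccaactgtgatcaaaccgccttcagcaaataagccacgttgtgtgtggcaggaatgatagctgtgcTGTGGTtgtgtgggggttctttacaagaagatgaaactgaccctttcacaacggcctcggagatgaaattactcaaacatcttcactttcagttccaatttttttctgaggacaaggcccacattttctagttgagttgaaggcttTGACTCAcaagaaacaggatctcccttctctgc
Klrc1: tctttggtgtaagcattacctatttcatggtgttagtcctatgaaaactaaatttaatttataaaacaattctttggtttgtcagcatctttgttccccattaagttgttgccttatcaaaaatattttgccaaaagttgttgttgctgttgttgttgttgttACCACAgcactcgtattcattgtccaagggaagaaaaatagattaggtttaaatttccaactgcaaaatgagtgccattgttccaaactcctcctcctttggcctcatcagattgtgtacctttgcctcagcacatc
The Klrk1 window holds 1 Runx and 1 AP-1 match and the Klrc1 window 1 Runx match on the opposite strand. Of 6 members with a window, 4 held the Runx letters in at least 1 window, 1 held AP-1, and 0 held the T-box or Nfil3 letters. Among all 32851 windows of the table, 16.8% held the Runx letters, 7.81% AP-1, 3.98% T-box and 2.32% Nfil3. Those 4 members were Klrk1, Klrc1, Klrb1c and Klre1, and the Klrb1b and Klrb1f windows held none of the 4 motifs.

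Klrg1 and Crtam were not called, and both were higher in spinal cord in each pair of arrays of the same number. The share of all genes for which this holds was not computed. Klrg1, an inhibitory cadherin receptor of strongly stimulated effector cells, read 407, 750 and 1375 in spinal cord, against 263, 322 and 776 in lymph node. The groups overlap, and in both tissues array 1 was lowest and array 3 highest, while the ratio within pairs 1, 2 and 3 was 1.55, 2.33 and 1.77. The log2 change was 0.89 ± 0.57 SE (adjusted p = 0.58 by limma), and with the replicate number as a block it was 0.89 ± 0.15 (adjusted p = 0.0209). Crtam, a receptor that appears on T cells after activation and binds Cadm1, read 213, 267 and 248 in spinal cord, against 107, 132 and 173 in lymph node, with no overlap. Any pairing of its arrays therefore gives the same direction. The log2 change of Crtam was 0.84 ± 0.20 SE (adjusted p = 0.117 by limma, 0.0223 with the block). The block thus calls 6 of the 8 genes higher, where it calls 3.67% of all genes higher, and 11 of the 14 probe sets, where it calls 2.94% of probe sets higher.

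Klre1, whose product pairs with Klri1 or Klri2 on NK cells, was not measurable above background. It read 25, 27 and 34 in spinal cord, against 22, 20 and 18 in lymph node (adjusted p = 0.209 by limma), with no overlap but all under the limit. In all, 6 of the 8 genes had groups that do not overlap, higher in spinal cord, against 8.81% of all genes. Of the 14 probe sets, 4 lay under the background limit on all 6 arrays and 5 lay above it on all 6.

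The other lectin-like receptor genes of the NK complex were mostly dark in both tissues. Of 39 listed genes 20 were measured, 15 of them under the background limit on all 6 arrays, among them 7 genes of the Ly49 (Klra) family. Only Cd69, the early activation marker encoded within the same complex, was called. It read 7818, 10054 and 8950 in spinal cord, against 2032, 2959 and 2436 in lymph node (log2 change 1.86 ± 0.18 SE, adjusted p = 0.00824 by limma; 0.0543 without spinal cord array 2). The list median was 0.08. With the block 2 of the 20 were higher, Cd69 and Clec7a, a receptor known from myeloid cells, where 3.67% of all genes were.

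None of the 9 measured ligand genes was called. Clec2d, the ligand of NKR-P1B, read 141, 104 and 71 in spinal cord, against 160, 174 and 111 in lymph node, with overlap (log2 change -0.52 ± 0.30, adjusted p = 0.527 by limma). Clec2i, a ligand of NKR-P1F, read 84, 244 and 172 in spinal cord, against 146, 315 and 188 in lymph node (log2 change -0.43 ± 0.46, adjusted p = 0.767 by limma). Clec2g, Cadm1, Ulbp1 and H60c lay under the background limit on every array. Cdh1, which encodes the Klrg1 ligand E-cadherin, read 42, 95 and 139 in spinal cord, against 13, 20 and 16 in lymph node, with no overlap (adjusted p = 0.0606 by limma; 0.00728 with the block). All 3 of its lymph node values and 1 of its spinal cord values lie under the background limit, so no size of change is given. The gene of Qa-1 and most NKG2D ligands were not analysed here.

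Among 17 adaptor and signalling genes, Sh2d1a fell and 16 were not called, with a median log2 change of -0.09. Sh2d1a, which encodes the adaptor SAP of the SLAM family receptors, read 526, 560 and 958 in spinal cord, against 2011, 1868 and 2928 in lymph node. Its log2 change was -1.76 ± 0.29 SE (adjusted p = 0.0414 by limma), and it kept its call only without spinal cord array 3 (0.0366), with an adjusted p from 0.092 to 0.158 in the other 5 fits. Tyrobp, the gene of the adaptor DAP12, read 101, 269 and 260 in spinal cord, against 54, 51 and 53 in lymph node. It was not called (adjusted p = 0.0782 by limma, 0.0206 with the block). Its lymph node values lie under the background limit and spinal cord array 1 just above it, so no fold is given. Tyrobp is also a myeloid gene, and Csf1r, the receptor of macrophage colony-stimulating factor, read 237, 1486 and 754 in spinal cord, against 99, 57 and 98 in lymph node. Csf1r was not called (adjusted p = 0.096 by limma, 0.0361 with the block). Ptpn6, the phosphatase SHP-1 recruited by inhibitory receptors, read 4130, 3429 and 2419 in spinal cord, against 4305, 3672 and 3538 in lymph node, with overlap.

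Of 15 other receptor genes known from NK cells, Havcr2 rose and 14 were not called (list median 0.36). Havcr2, which encodes the inhibitory receptor TIM-3, read 288, 469 and 577 in spinal cord, against 49, 43 and 57 in lymph node, where it lay under the background limit. It was at least 4.62-fold higher (log2 change 3.11 ± 0.28 SE, adjusted p = 0.00777 by limma; 0.0516 without spinal cord array 2 and 0.0501 without lymph node array 2). Cd96, bright in both tissues, read 6200, 3500 and 2708 in spinal cord, against 4739, 4235 and 3206 in lymph node (log2 change -0.04 ± 0.33). With the block 3 of the 15 were higher, Havcr2, Lag3 and Fcgr3, where 3.67% of all genes were.

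Transcription factor and cytokine receptor genes linked to NK receptor expression had 3 of 17 members called higher and 1 lower, with a median of 0.59. Tbx21, which encodes T-bet, read 1688, 1826 and 1477 in spinal cord, against 384, 427 and 372 in lymph node (log2 change 2.07 ± 0.13 SE, adjusted p = 0.00365 by limma). Nfil3, a factor needed for NK cell development, read 1234, 922 and 877 in spinal cord, against 169, 126 and 104 in lymph node (log2 change 2.94 ± 0.23 SE, adjusted p = 0.00568 by limma). Both kept their calls whichever array was left out. Zeb2, a transcription factor of terminally differentiated effector T cells and NK cells, read 334, 456 and 149 in spinal cord, against 38, 65 and 28 in lymph node (at least 3.06-fold higher, adjusted p = 0.0488 by limma), and it kept its call only without spinal cord array 3 (0.0403; 0.113 to 0.156 in the other 5 fits). Tox, a nuclear factor needed for CD4 T cell development, fell, at 100, 102 and 157 in spinal cord, against 594, 848 and 805 in lymph node (log2 change -2.66 ± 0.24 SE, adjusted p = 0.00777 by limma; 0.0516 without spinal cord array 2).

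Eomes, the T-box factor of NK cells and cytotoxic T cells, was not called, with a change opposite in sign to that of Tbx21. It read 52, 93 and 306 in spinal cord, against 113, 406 and 1185 in lymph node, with overlap, lower in spinal cord in each pair of numbered arrays (log2 change -1.73 ± 1.00 SE, adjusted p = 0.534 by limma; 0.00898 with the block). Runx3, a Runx factor of cytotoxic lineages, read 1416, 1893 and 2146 in spinal cord, against 385, 879 and 869 in lymph node, with no overlap (log2 change 1.43 ± 0.36 SE, adjusted p = 0.13 by limma; 0.00863 with the block). With the block 7 of the 17 were higher and 2 lower, where 3.67% and 7.45% of all genes were.

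**Figure D3:**
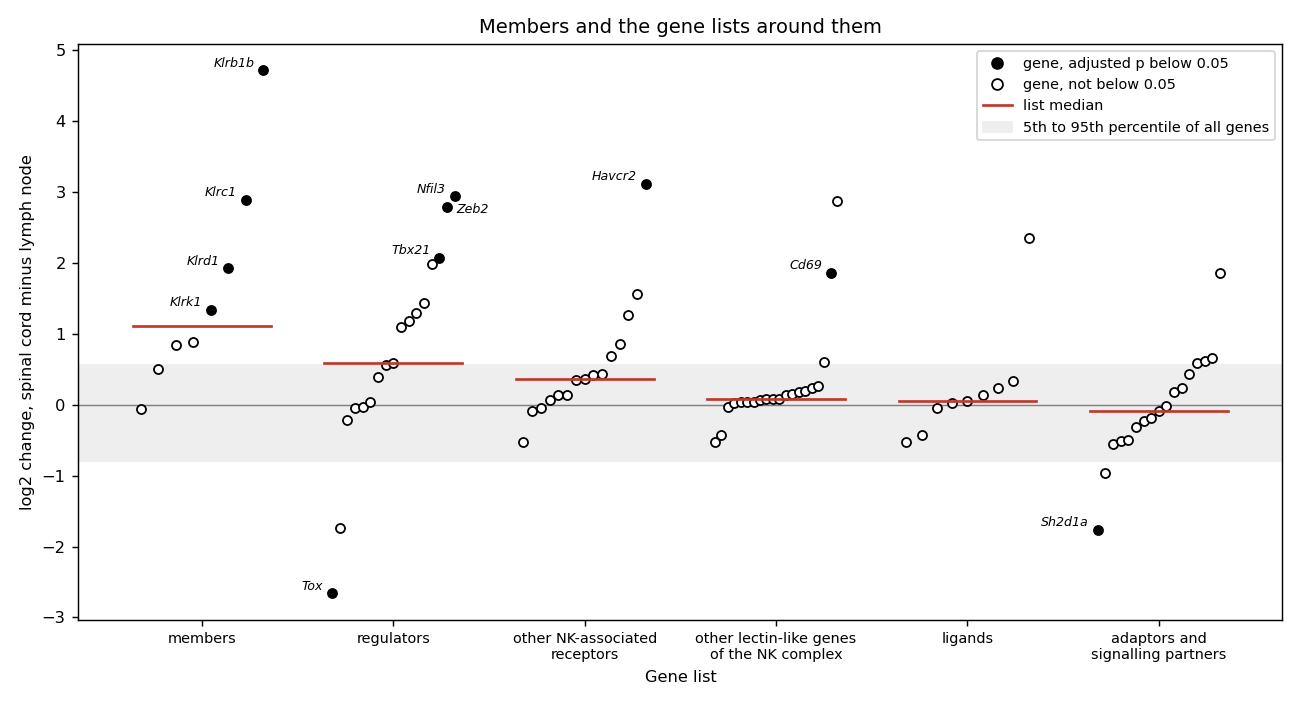
Log2 change, spinal cord minus lymph node, of each measured gene in the 8 members and 5 surrounding lists (filled where the limma adjusted p was below 0.05), with list medians in red and the 5th to 95th percentile of all genes in grey. Among the plotted lists the members, chosen with earlier results of these data known, have the highest median, 1.11. The macrophage, monocyte and microglia list, not plotted, had a median of 1.10. The ligand and other lectin-like lists lie within the grey band apart from Cdh1, Cd69, Clec7a and the dim Klra5.

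The T cell genes Cd4 and Cd3e lay well above the background limit in both tissues. Cd4 read 6371, 4101 and 2763 in spinal cord, against 7669, 2063 and 2823 in lymph node, and Cd3e read 1358 to 2153 in spinal cord, against 1248 to 2124 in lymph node. None of 10 CD4 T cell markers was called, and their summed intensity was 58070 to 67592 in spinal cord, against 56855 to 70851 in lymph node. Ncr1, the receptor that defines NK cells, read 64, 63 and 51 in spinal cord, against 60, 52 and 50 in lymph node, and Klra8 read 13 to 15 in spinal cord, against 12 to 16 in lymph node, all under the background limit. Zbtb16, the factor of invariant NKT cells, read 71 to 82 in spinal cord, against 69 to 81 in lymph node, also under it.

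Of the 17 measured NK cell markers 5 lay under the limit on all arrays (Ncr1, Cd244a, Klra8, Klra7 and Khdc1a). The other 12 lay above it on at least 1 array. Of the 17, 6 had groups that do not overlap, higher in spinal cord, against 8.81% of all genes. Another 1 was lower without overlap, for which no share over all genes was computed. The whole list had 0 called, while its summed intensity was higher in spinal cord, at 10649 to 22248 against 4376 to 9317 in lymph node. The sum includes Nkg7, Ccl5 and Gzmb, which activated T cells also express. Nkg7, a granule protein gene, read 3992, 4244 and 7910 in spinal cord, against 436, 798 and 2196 in lymph node (adjusted p = 0.123 by limma, 0.00525 with the block). With the block 5 of the 17 were higher and 2 lower, where 3.67% and 7.45% of all genes were. Gzma read 309, 806 and 1321 in spinal cord, against 83, 201 and 247 in lymph node (adjusted p = 0.198 by limma; 0.00188 with the block). The CD8 markers Cd8a and Cd8b1 read 165 to 225 and 116 to 124 in spinal cord, and 121 to 186 and 118 to 134 in lymph node. Both overlap between tissues and lie above the background limit on every array. Gzmk, also on the CD8 marker list, read 259, 337 and 1424 in spinal cord, against 151, 403 and 1876 in lymph node, with overlap.

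Myeloid markers had changes of the same sign as the called members. Of 17 measured macrophage, monocyte and microglia genes 0 were called, but all 17 had positive changes (median 1.10). Of these, 15 had groups that do not overlap, higher in spinal cord, against 8.81% of all genes. With the block 8 were higher, where 3.67% of all genes were. Their summed intensity was 6227 to 12377 in spinal cord against 2503 to 3254 in lymph node. Of 9 dendritic cell genes 1 was called, the integrin gene Itgax, at 229, 315 and 246 in spinal cord, against 97, 79 and 97 in lymph node (adjusted p = 0.0128 by limma). All 9 dendritic cell genes had positive changes (median 0.18). Among 8 neutrophil genes 0 were called, with sums of 447 to 2078 in spinal cord, against 347 to 478 in lymph node, and all 8 had positive changes (median 0.85). Among 9 B cell genes 0 were called, with sums of 397 to 426 in spinal cord, against 391 to 508 in lymph node, and 5 gamma delta and invariant T cell genes summed to 1264 to 1543 in spinal cord, against 885 to 1377 in lymph node, with 0 called. The part of other cell types in the receptor changes was not tested.

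**Figure D4:**
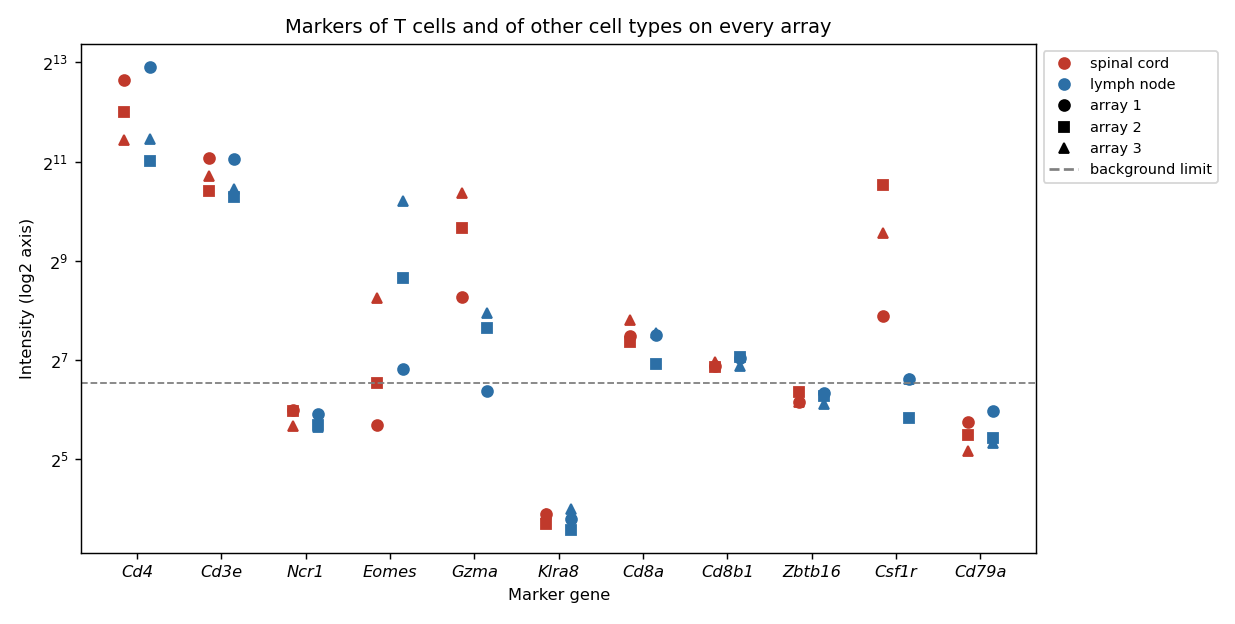
Intensity (log2 axis) of marker genes on every array, spinal cord left of lymph node, with symbols for the array number and a dashed line at the background limit of 92.45. Cd4 and Cd3e are bright in both tissues, Ncr1, Klra8, Zbtb16 and the B cell gene Cd79a lie under the line on every array, and Csf1r is higher in spinal cord.

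For each called member, the genes with the nearest pattern were found by the root mean square difference of centred log2 values over the 6 arrays, among 10915 genes at or above the 40th percentile of mean level. Plac8 (0.19), Camk2n1 (0.27) and the glycosyltransferase gene Gcnt2 (0.42) were nearest to Klrb1b. Nearest to Klrc1 were Chsy1 (0.25), Tnfaip3 (0.31), the feedback inhibitor A20 of NF-kB signalling, and Rai14 (0.32). Nearest to Klrd1 were Rhoq (0.21), Hexim1 (0.21) and the hypoxia factor gene Epas1 (0.23). Nearest to Klrk1 were F2rl2 (0.14), Map1lc3a (0.15) and Nek6 (0.17). The partner chains Klrc1 and Klrd1 differed from each other by 0.57 on this measure, so that each had other genes nearer to it. The measure includes the size of the log2 change between tissues, which was 2.90 for Klrc1 and 1.93 for Klrd1.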

How the data were processed

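The authors deposited 1 table of intensity values for 45101 probe sets on 6 arrays, made with RMA per the submitters' processing notes (version not given in the sources used here). RMA corrects background, normalizes arrays and summarises probes. Per the labels' protocols, the Affymetrix kit amplified 1 ng of RNA, which can add variation between arrays. Values were whole numbers from 9 to 39505, so log2 was taken. No detection calls were used here.

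Gene names came from the platform annotation: 34945 probe sets named 1 gene, and the brightest by mean was taken for each of 18193 genes. limma 3.58.1 in R 4.3.3 (lmFit, eBayes, two-sided, Benjamini-Hochberg) was fitted with tissue as the only term over all genes and again over all those probe sets. The fit was also run on simulated data with independent noise on each array. That simulation lacks the shared deviations of arrays of the same number, so it cannot judge their effect on the calls. Tables used Python 3.11.15, pandas 2.3.3 and numpy 2.4.6, and figures matplotlib 3.10.9.

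The members and lists were chosen with earlier results of these data known. Every member was named, with called genes of each surrounding list (up to 6), the 3 genes nearest to each called member, and marker genes. Other listed genes were named after their values were seen. An "at least" fold sets the brighter mean against the background limit. The alternative settings comprised quantile normalization, a dim-gene filter, leaving out single arrays, the replicate number as a block, median centring, another variance model, the mean of probe sets and a floor at the 20th percentile (25). Since no label states that each array comes from another animal, p-values reflect only array-to-array spread, which may be technical. For arrays 1, 2 and 3, deviations from the tissue means correlated across tissues at 0.576, 0.509 and 0.777, against -0.569 to 0.00506 for unlike numbers, across 18193 genes that are not independent. Within a tissue the deviations of a gene cancel out, so positive values for like numbers push those for unlike numbers down. The contrast between like and unlike numbers is therefore partly fixed by construction. The pairing was thus taken from the values, since no label states it.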

Additional observations from a re-analysis of the deposited data

How the results depend on the processing

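The 4 called members were also called under the dim-gene filter, quantile normalization, median centring, the other variance model and the mean of probe sets, which lowered the log2 change to 3.35 for Klrb1b and 1.96 for Klrc1. With a floor at the 20th percentile 3 genes were called, without Klrd1 (adjusted p = 0.0818), and 4 member probe sets instead of 8. With the replicate block 6 genes and 11 probe sets were called, and 18 genes of the surrounding lists instead of 7. Calls also rose over all genes, from 1.13% to 3.67% higher and from 1.41% to 7.45% lower. Over all probe sets the share called higher rose from 0.701% to 2.94%. For the other settings, including the floor and the fits lacking an array, no such share was computed. Their counts therefore cannot be told apart from a general change in calls. Leaving out single arrays gave 1 to 4 member genes (1 without spinal cord array 2 and 2 without array 3), 3 to 6 probe sets (3 without spinal cord array 2, 4 without its array 3 or lymph node array 2, 5 without lymph node array 3 or array 1 of spinal cord) and 2 to 9 listed genes (2 without spinal cord array 2, 4 without lymph node array 2). Klrb1f, never called, turned sign under quantile normalization (0.041), with the mean of probe sets (0.066), and in the fits lacking spinal cord array 1 (0.000426) or array 3 from lymph node (0.11), in a range of -0.14 to 0.11 without single arrays. The cause of these turns was not tested, and the fits lacking an array also have fewer arrays. In the main fit the Klrb1f change was -0.06 ± 0.18 SE, smaller than its SE. A background limit at the 90th or 99th percentile (66.0 or 212.6) put 3 or 5 probe sets under it on all arrays instead of 4. Sh2d1a lost its call under quantile normalization (adjusted p = 0.0684) and with the floor (0.112), and Zeb2 under median centring (0.0536) and with the floor (0.134).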
